A study of Mus musculus with 6 samples.

Results

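The receptors through which early lymphoid and myeloid progenitors read growth factors were examined in mouse acute lymphoblastic leukaemia driven by BCR-ABL1, a constitutively active tyrosine kinase made by the Philadelphia translocation. The set held 10 genes: the cytokine receptor chains Il7r, Crlf2, Il2rg, Il2ra, Il3ra, Csf2rb, Il4ra and Il21r, and the receptor tyrosine kinases Flt3 and Kit. Every probe set annotated to exactly 1 of these symbols was taken, which gave 15 of 45037 probe sets, covering 9 of the 18193 genes measured. Il2rg was not analysed here. Of the 9 genes, 5 were read by more than 1 probe set and 4 by a single one.

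The study compared leukaemia cells lacking AID, the cytidine deaminase of antibody diversification (AID-/-), with leukaemia cells that carry it (AID+/+). Both groups are labelled Balb/c and hold 3 arrays each, titled as biological replicates. Total RNA was read on Affymetrix 3' arrays. The labels give no age, sex, treatment or culture condition, and do not state from how many mice or clones each group was raised. The p-values therefore reflect the variation among these samples alone, and part of it may be technical.

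Cytokine receptors of this kind have no kinase of their own. IL7R pairs with the common gamma chain to bind interleukin-7, and with CRLF2 to bind TSLP, and the bound receptor activates JAK kinases and STAT5, the pathway on which mouse B-cell progenitors depend for growth. CSF2RB is the signalling chain shared by the receptors for interleukin-3, interleukin-5 and GM-CSF, whereas FLT3 and KIT carry their own kinase domain and act in early progenitors. BCR-ABL1 itself activates STAT5, which in such cells can take the place of cytokine signals.

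The values are RMA expression values on the log2 scale, on which a step of 1 is a doubling. In RMA, background-corrected and normalised probe signals are combined into 1 value per probe set. Array medians lay between 4.85 and 4.90, and the median probe set had a mean of 4.89. Levels of different probe sets do not rank their transcripts by amount, because each has its own probe affinity. Bright and dim below refer to the signal alone. The targeted gene was not analysed here, so the genotype labels were not checked on it. The Y-linked Kdm5d was at 7.62 to 7.74 in the AID-/- arrays and at 2.42 to 2.68 in the AID+/+ arrays, and Xist, the RNA that silences an X chromosome in female cells, was at 4.35 to 6.02 against 11.93 to 12.18. Sex and genotype therefore cannot be told apart in any comparison here. The 9 measured genes lie on autosomes. The Y-linked Eif2s3y set AID-/- replicate 1 apart, at 8.85 against 3.67 and 2.71 in replicates 2 and 3, so results that change without this array are also given without it.

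Il7r was the only one of the 9 genes with probe sets past the threshold, and both of its probe sets were lower in AID-/- leukaemia, while Csf2rb leaned higher at both of its probe sets without passing. Differences are given as AID-/- minus AID+/+ from limma, a linear model with a spread estimate shared across probe sets, with the moderated standard error (SE) and Benjamini-Hochberg adjusted p-values over all probe sets, called under 0.05. Of the 15 probe sets, 2 were lower and 0 higher, against 7.39% lower and 7.24% higher among all probe sets. Both directions together, limma called 14.6% of all probe sets after adjustment. At an unadjusted p under 0.05, limma gave 3 lower and 2 higher, against 15.1% lower and 12.3% higher among all probe sets. An ordinary linear model without moderation gave 0 of either after adjustment. The share of all probe sets called by that model was not counted, so its 0 has no background to be read against. Groups of arrays did not overlap for 5 of the 15, against 32.9% of all probe sets, a share close to that background; 1 was higher and 4 lower, against 14.2% and 18.7%. The median difference was -0.13, against -0.04 over all probe sets. Without AID-/- replicate 1, limma called 1 of the 15 lower and 2 higher after adjustment. The share of all probe sets called in that fit was not counted.

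**Figure D1:**
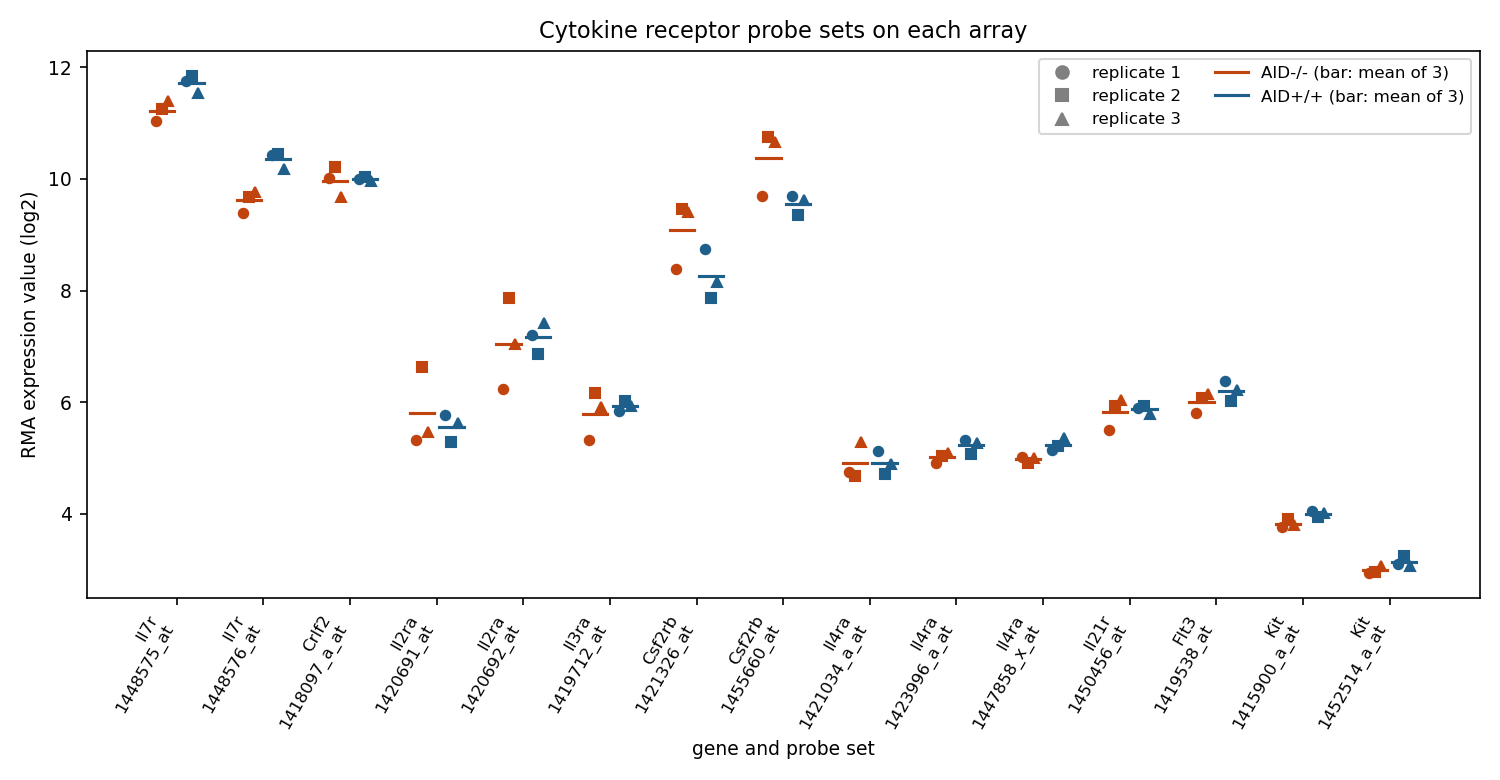
RMA expression value (log2) of the 15 probe sets on each of the 6 arrays, with AID-/- in orange and AID+/+ in blue, a marker shape for each replicate and a bar at the mean of 3. Both Il7r probe sets lie lower on every AID-/- array than on any AID+/+ array. For Csf2rb, AID-/- replicates 2 and 3 lie above all AID+/+ arrays, whereas replicate 1 lies among them or at their upper edge.

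Il7r encodes the interleukin-7 receptor alpha chain. The promoter of Il7r is shown because this was the gene called, and that of Csf2rb2, the neighbouring copy of Csf2rb, because it was called in the opposite direction and is described below. Both windows hold 300 bases around the annotated start, most of them upstream of it, from RefSeq on GRCm38.p6, on the minus strand at chr15:9529827-9530126 and chr15:78305672-78305971. Capitals mark matches to CNGGAAGT or to TTCNNNGAA, each searched on both strands. The first is a form of the site bound by ETS factors such as GABP, and the second is the core bound by STAT5. The first requires its opening C, so GGAAGT after other bases, as on the unprinted strand of the Csf2rb2 window, is not marked.
Il7r: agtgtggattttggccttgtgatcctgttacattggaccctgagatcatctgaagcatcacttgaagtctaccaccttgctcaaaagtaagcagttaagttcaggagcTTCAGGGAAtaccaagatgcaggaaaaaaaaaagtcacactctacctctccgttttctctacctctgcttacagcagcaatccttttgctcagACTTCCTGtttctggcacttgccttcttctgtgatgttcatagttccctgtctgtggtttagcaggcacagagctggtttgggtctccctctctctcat
Csf2rb2: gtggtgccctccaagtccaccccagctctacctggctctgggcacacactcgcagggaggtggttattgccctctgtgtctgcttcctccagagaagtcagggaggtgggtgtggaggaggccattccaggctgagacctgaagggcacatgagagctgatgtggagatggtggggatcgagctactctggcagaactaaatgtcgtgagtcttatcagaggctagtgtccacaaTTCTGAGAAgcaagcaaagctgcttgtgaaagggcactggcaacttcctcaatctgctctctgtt
The Il7r window held 1 match to each, which do not overlap, and the Csf2rb2 window held 1 match to TTCNNNGAA. Promoter entries were matched for 8 of the 9 genes, of which 2, Il7r and Il3ra, held CNGGAAGT and 1, Il7r, held TTCNNNGAA. Among 32851 promoter windows of this length, 9.53% held the first motif and 8.3% the second. The motifs were chosen with these sequences in view, and a match is a description of the letters, not of a bound site.

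At the brighter probe set of Il7r (1448575_at) the AID-/- arrays read 11.03, 11.26 and 11.39, and the AID+/+ arrays read 11.75, 11.85 and 11.54. The AID-/- mean was 11.22 ± 0.18 and the AID+/+ mean 11.72 ± 0.16 (SD, n = 3), so both groups held a bright Il7r signal. The second probe set (1448576_at) read 9.40, 9.68 and 9.77 in AID-/- leukaemia and 10.43, 10.44 and 10.18 in AID+/+ leukaemia. All 3 AID-/- arrays were below all 3 AID+/+ arrays at both probe sets, and the lowest value of each set was AID-/- replicate 1. The level fell by 0.49 (SE 0.13, limma adjusted p = 0.0340) at the first and by 0.74 (SE 0.13, limma adjusted p = 0.00642) at the second, changes of 1.41-fold and 1.66-fold. In cells taken in bulk, fewer cells with a transcript and less of it per cell cannot be told apart.

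The call at 1448576_at held in 12 of 13 alternative fits, with adjusted p between 0.00349 and 0.0740, and was lost only without variance moderation. At 1448575_at the decrease kept its direction in all 13 fits, by 0.39 to 0.58, but the call was lost in 7 of them (adjusted p between 0.0159 and 0.142 over the 13), including those without AID-/- replicate 1 (0.0810) or 2 (0.0685) and without AID+/+ replicate 1 (0.0998) or 2 (0.113).

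**Figure D2:**
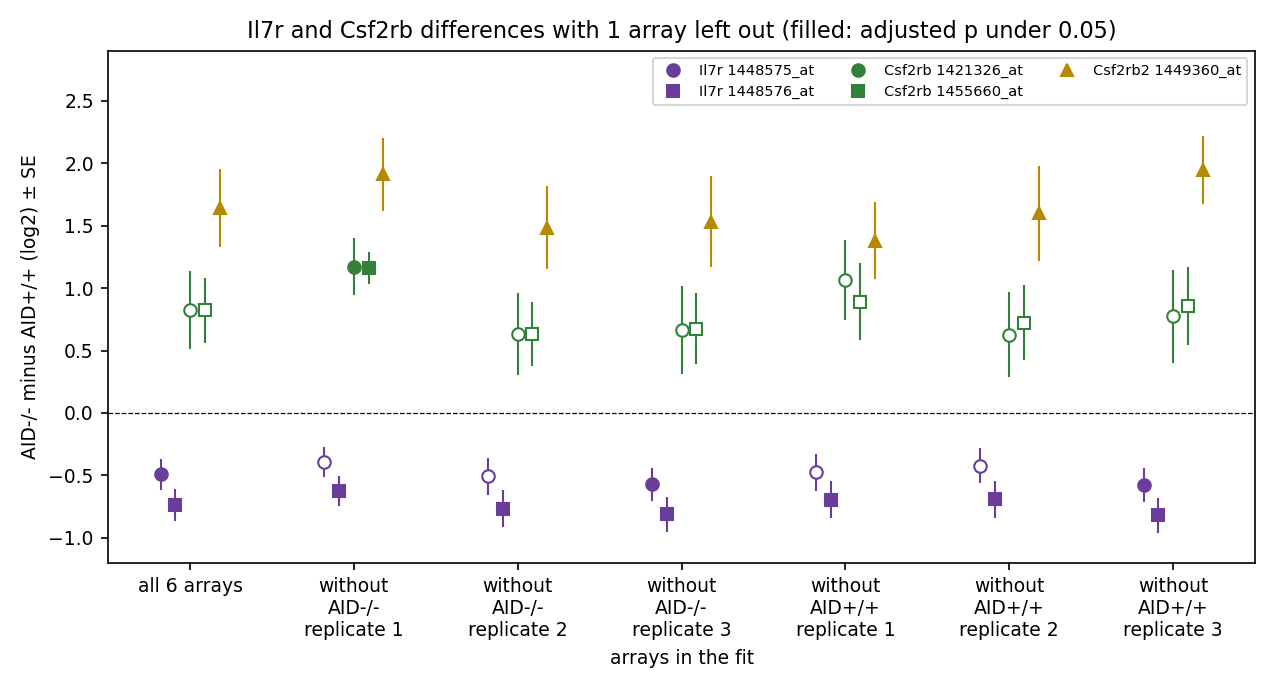
Difference (log2, AID-/- minus AID+/+, bars ± SE) of the Il7r, Csf2rb and Csf2rb2 probe sets in the fit of all 6 arrays and with each array left out, filled where the adjusted p was under 0.05. The second Il7r probe set (squares) stays called throughout, between -0.82 and -0.63, and both Csf2rb probe sets are called only without AID-/- replicate 1, at 1.17 and 1.16.

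Crlf2, the chain that pairs with IL7R in the TSLP receptor, did not follow Il7r. Its probe set read 10.01, 10.21 and 9.67 in AID-/- and 10.004, 10.04 and 9.97 in AID+/+ leukaemia. The AID-/- arrays spread on both sides of a tight AID+/+ group. The difference was -0.04 (SE 0.14), with a 95% interval of -0.35 to 0.27, and it did not pass (limma adjusted p = 0.898).

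Il2ra, which encodes CD25, the alpha chain of the interleukin-2 receptor, varied more within the AID-/- group than between groups. Its probe set 1420692_at read 6.23, 7.86 and 7.05 in AID-/- and 7.21, 6.87 and 7.42 in AID+/+ leukaemia, and 1420691_at read 5.32, 6.63 and 5.47 against 5.77, 5.28 and 5.62. AID-/- replicate 2 held the highest value and, but for the AID+/+ replicate 2 value at 1420691_at, AID-/- replicate 1 the lowest. The groups overlapped at both. The differences were -0.12 (95% interval -0.94 to 0.70) and 0.25 (-0.47 to 0.97), of opposite sign and neither past the threshold (limma adjusted p = 0.877 and 0.680). These intervals, the widest of the 15 probe sets, leave room for changes of either direction. Without AID-/- replicate 1 the differences were 0.29 and 0.49, and without replicate 2 the second was -0.16.

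Neither Il4ra, the receptor chain for interleukin-4 and interleukin-13, nor Il21r, the interleukin-21 receptor, passed at any probe set. The 3 probe sets of Il4ra read between 4.68 and 5.36 on all 6 arrays, around the level of the median probe set. At 1447858_x_at the AID-/- arrays, at 5.02, 4.91 and 5.01, lay below the AID+/+ arrays, at 5.14, 5.21 and 5.36, with a difference of -0.26 (SE 0.10) that did not pass (limma adjusted p = 0.121). The other Il4ra probe sets differed by -0.21 and -0.0046 with overlapping groups, and the second of these was at 0.0771 without AID-/- replicate 1. Il21r read 5.50, 5.92 and 6.03 in AID-/- and 5.89, 5.93 and 5.79 in AID+/+ leukaemia, and its difference of -0.05 (95% interval -0.38 to 0.28) did not pass and was 0.11 without AID-/- replicate 1.

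Csf2rb, the shared beta chain, held the largest differences of the set. Probe set 1455660_at read 9.70, 10.76 and 10.67 in AID-/- leukaemia and 9.69, 9.35 and 9.62 in AID+/+ leukaemia. Probe set 1421326_at read 8.38, 9.46 and 9.40 against 8.75, 7.87 and 8.16. AID-/- replicates 2 and 3 exceeded every AID+/+ array at both probe sets, whereas AID-/- replicate 1 lay level with the highest AID+/+ array at the first and below it at the second. Both differed by 0.82 (SE 0.26 and 0.31), or 1.77-fold, and did not pass (limma adjusted p = 0.0734 and 0.128). Without AID-/- replicate 1 the differences were 1.16 and 1.17 and both passed (limma adjusted p = 0.00105 and 0.0146), and they also passed with array weights (0.0241 and 0.0418). Over the 13 alternatives the adjusted p ran from 0.00105 to 0.274 and from 0.0146 to 0.354.

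Mice carry a near-identical neighbour of this gene, Csf2rb2, which encodes a beta chain specific to interleukin-3, so reads of the pair by array probes are uncertain. A probe set annotated to both genes was outside the rule, and read 7.90, 8.76 and 8.51 in AID-/- against 8.42, 7.71 and 7.84 in AID+/+ leukaemia. Its order of arrays resembled that of Csf2rb, and its difference of 0.40 (SE 0.25) did not pass (limma adjusted p = 0.361). The probe set of Csf2rb2 alone read 6.86, 7.72 and 7.62 against 5.24, 5.67 and 6.37, with no overlap. Csf2rb2 was higher in AID-/- leukaemia by 1.64 (SE 0.31, limma adjusted p = 0.00905 over all probe sets), or 3.12-fold. That call was lost without variance moderation (0.102 over genes) and held in the other alternatives. How far probes of one gene also read its neighbour was not tested.

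Il3ra, the alpha chain that joins these beta chains in the interleukin-3 receptor, read 5.31, 6.16 and 5.91 in AID-/- and 5.83, 6.02 and 5.92 in AID+/+ leukaemia. AID-/- replicate 1 was again the lowest array while AID-/- replicate 2 was the highest and replicate 3 lay within the AID+/+ range. The difference was -0.13 (95% interval -0.58 to 0.32) and did not pass (limma adjusted p = 0.734). Without AID-/- replicate 1 it was 0.11.

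**Figure D3:**
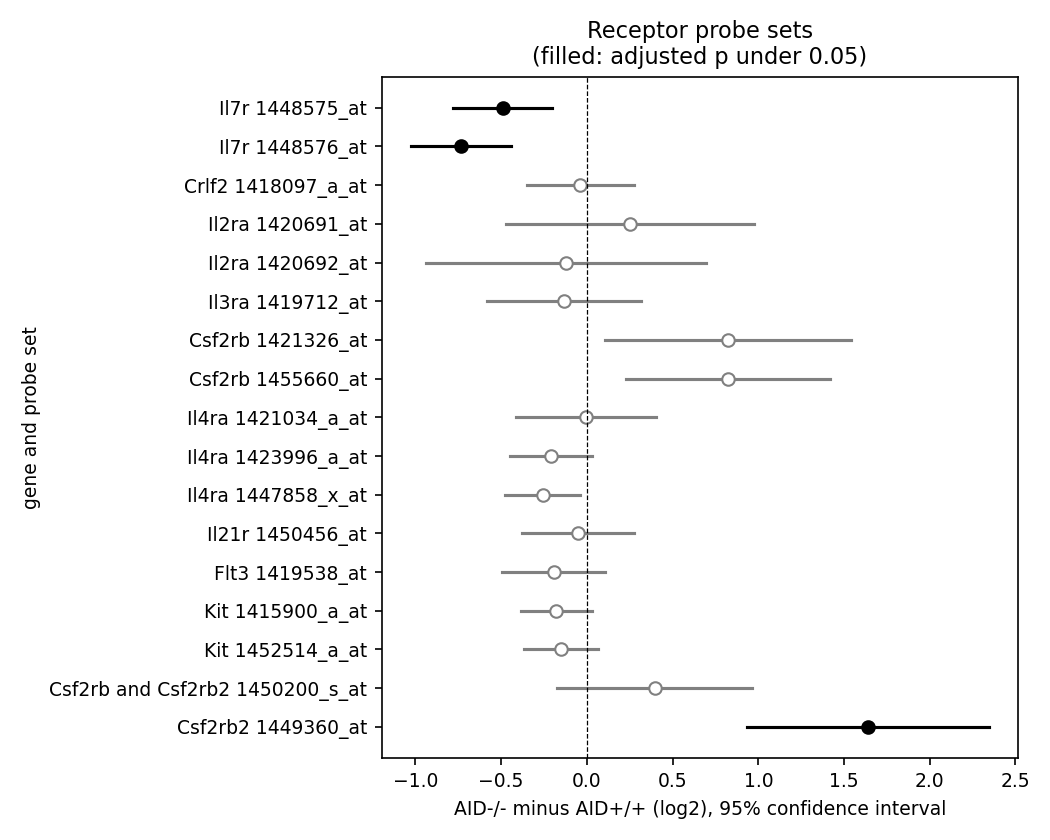
Difference (log2, AID-/- minus AID+/+) with its 95% confidence interval for the 15 probe sets, the probe set shared by Csf2rb and Csf2rb2, and Csf2rb2, filled where the adjusted p was under 0.05. Only the Il7r probe sets, at -0.49 and -0.74, and Csf2rb2, at 1.64, are filled.

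The tyrosine kinase receptors did not pass at any probe set. Flt3, which reads FLT3 ligand in early lymphoid progenitors, was at 5.80, 6.07 and 6.15 in AID-/- and at 6.37, 6.02 and 6.21 in AID+/+ leukaemia, overlapping groups that differed by -0.19 (95% interval -0.49 to 0.10; limma adjusted p = 0.399). Kit, the receptor for stem cell factor, was dim in every array, at 3.75 to 4.04 at one probe set and 2.93 to 3.25 at the other, where a probe set at the tenth percentile has a mean of 2.97. At the brighter one (1415900_a_at) the AID-/- arrays, at 3.75, 3.91 and 3.79, lay below the AID+/+ arrays, at 4.04, 3.94 and 4.01, by 0.18 (SE 0.09), which did not pass (limma adjusted p = 0.249). No detection calls were used, so a low value cannot be read as the absence of a transcript.

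AID-/- replicate 1 was the lowest of the 3 AID-/- arrays at 12 of the 15 probe sets, compared with 40.8% of all probe sets. In lists described below, it was the lowest for 23 of 30 JAK-STAT genes and 17 of 30 other cytokine receptors. For ligands this held for 3 of 13, and for 43.4% of all genes. The SD of the AID-/- arrays exceeded that of the AID+/+ arrays at 12 of the 15, compared with 53.7% of all. That SD was the larger for 20 JAK-STAT genes, 19 other receptors and 6 ligands, against 54.7% of all genes. Neither trait was thus confined to the 15 probe sets, in which 5 genes count more than once. By the root mean square distance of centred values over the 6 arrays, the genes closest to Csf2rb (1421326_at) among 11084 compared were Tpcn1, an ion channel of endosomes and lysosomes, at 0.09, Jund, an AP-1 subunit, at 0.14 and Adgrg1, an adhesion G protein-coupled receptor, at 0.16. In all 3 of these genes AID-/- replicates 2 and 3 lay above all other arrays, an order that the choice by closeness to Csf2rb favours. This likeness describes 6 arrays and includes the difference between groups.

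Markers were read for cells that could bring these receptors into the sample. Over all genes, limma called 10.1% higher and 8.42% lower after adjustment, or 18.5% in either direction. With so few genes per list, a count of 0 or 1 cannot be told apart from that share. All 10 measured B-lineage genes lay above the median probe set, and Rag1, Rag2 and Blnk among them were higher in AID-/- leukaemia. Summed over the list, B-lineage levels were 110.7 to 112.4 in AID-/- and 102.1 to 103.1 in AID+/+ arrays. Most of that gap came from Rag1, Rag2 and Blnk, which differed by 3.74, 2.78 and 2.09, while the other 7 genes differed by -0.37 to 0.35 and did not pass, so the sum is no measure of the lineage as a whole. Of 9 myeloid markers 7 lay below the median probe set, 1 (Lyz2) was higher and 1 (Fcgr1) lower, and their summed levels were 38.3 to 40.2 against 38.3 to 41.3. Of 7 mast cell and basophil markers, which go with Kit and Il3ra, 6 lay below the median probe set and 0 were called by limma, with sums of 26.5 to 27.0 against 27.2 to 28.6. Of the T cell markers 1 of 8 (Cd28) and of the natural killer markers 1 of 4 (Klrd1) were lower, and 0 of 6 erythroid and megakaryocyte, 0 of 5 dendritic and 0 of 6 stromal markers were called. T cell sums were 34.0 to 34.8 in AID-/- and 34.9 to 36.1 in AID+/+ arrays. Natural killer sums were 14.1 to 14.8 against 15.6 to 16.4. Of these markers 5 of 8 and 4 of 4 lay below the median probe set. Sums of the erythroid and megakaryocyte, dendritic and stromal lists overlapped between groups. The dendritic list includes Flt3, itself one of the receptors described. Because probe affinities differ, a signal above or below the median probe set does not show which cells were present. The part of other cells in the receptor values was not tested.

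Other cytokine receptors moved in both directions. Of 30 measured, 5 were higher and 2 lower in AID-/- leukaemia, against 10.1% and 8.42% of all genes, with each gene read at its brightest probe set and p-values adjusted over all genes (18.5% called in either direction). Groups did not overlap for 11 of the 30, 6 higher and 5 lower, against 36.5% of all genes (17.5% higher and 19.0% lower). Their median difference was -0.06, against -0.03 over all genes. Only 2 were higher without AID-/- replicate 3 or without AID+/+ replicate 2, and without AID+/+ replicate 3 the counts were 3 higher and 1 lower. The shares of all genes called in those fits were not counted. For 3 receptors the brightest probe set was not called but another one was, so the count depends on the probe set read. Il6st, the gp130 chain shared by interleukin-6 family receptors, differed by 0.09 at its brightest probe set and was higher by 2.76 (SE 0.11, limma adjusted p = 3.01e-06), 2.45 and 0.71 at the others. The first of these read 6.49, 6.83 and 6.74 in AID-/- and 3.88, 4.03 and 3.87 in AID+/+ leukaemia. Lifr was lower by 0.52 at 1 probe set, and by 0.98 at its brightest and 0.51 at another without passing. Pdgfrb was higher by 0.74 at 1 dim probe set, with means of 3.28 in AID-/- and 2.55 in AID+/+ leukaemia. Its brightest probe set differed by 0.01. Il6st, Lifr and Pdgfrb were all named after their values were seen. Besides Csf2rb2, Ifngr2, the second chain of the interferon-gamma receptor, was at 8.02, 8.42 and 8.38 in AID-/- and 7.48, 7.25 and 7.27 in AID+/+ leukaemia, higher by 0.94 (SE 0.13, limma adjusted p = 0.00211), and its other probe set differed by 0.29 without passing. Chosen after their values were seen, the partner chain Ifngr1 was higher by 0.80 (SE 0.18), the interleukin-10 receptor Il10ra by 0.85 (SE 0.19) and the interleukin-15 receptor Il15ra by 0.34 (SE 0.09). The other probe sets of Il10ra differed by 0.27 and -0.05. Those last 3 calls were each lost in 5 or more of 14 alternatives, with adjusted p up to 0.121, 0.120 and 0.146, including the fits without AID+/+ replicate 2 or 3 for each of them, without AID-/- replicate 3 for each of them, without AID+/+ replicate 1 for Ifngr1, and without AID-/- replicate 1 or 2 for Il15ra.

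The 2 lower receptors were Ghr and Il27ra. Ghr, the growth hormone receptor, was at 3.20, 3.29 and 3.00 in AID-/- and 4.37, 4.59 and 4.41 in AID+/+ leukaemia, so it fell by 1.30 (SE 0.11, limma adjusted p = 0.000203) within the dim end of the scale. Its other probe sets differed by -0.34 and -0.13 and did not pass. Il27ra, the interleukin-27 receptor, fell by 0.80 (SE 0.17, limma adjusted p = 0.0142), from 5.90, 5.82 and 5.88 to 5.11, 5.41 and 4.69, a call lost without AID+/+ replicate 1 (0.0537) or 3 (0.0562) and without moderation (0.107). Csf2ra, the GM-CSF receptor alpha chain, and Il2rb, the beta chain of the interleukin-2 receptor, both chosen after their values were seen, differed by 0.59 (SE 0.24) and -0.27 (SE 0.10) and did not pass.

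Among the ligands, 1 of 13 measured was higher and 1 lower, against 10.1% and 8.42% of all genes, with a median difference of -0.09. Groups did not overlap for 6 of the 13, 1 higher and 5 lower, against 36.5% of all genes (17.5% higher and 19.0% lower). Csf1, the macrophage growth factor, was at 9.21, 9.57 and 9.28 in AID-/- and 7.28, 7.43 and 7.29 in AID+/+ leukaemia, with no overlap. It was higher by 2.02 (SE 0.11, limma adjusted p = 2.42e-05), or 4.06-fold, and its other probe sets differed by 0.70, 1.37 and 1.93. Il2 fell by 0.34 (SE 0.08, limma adjusted p = 0.0199), from 3.21 ± 0.04 to 2.87 ± 0.04 (SD, n = 3), near the lower end of the scale where values hold little order, and this call was lost with a replicate block (0.0657), without AID-/- replicate 3 (0.0685) and without AID+/+ replicate 2 (0.0704) or 3 (0.0643). The other 11 ligands did not pass. Among those chosen after their values were seen, Il7 and Tslp, the ligands of the receptors that hold IL7R, differed by -0.07 and -0.04, Il3 by -0.28 and Kitl, the stem cell factor gene, by 0.06. Il4, Il13, Il21, Il5 and Csf2, whose products bind receptors that include IL4RA, IL21R or CSF2RB, differed by -0.28, -0.10, 0.02, 0.07 and -0.15.

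**Figure D4:**
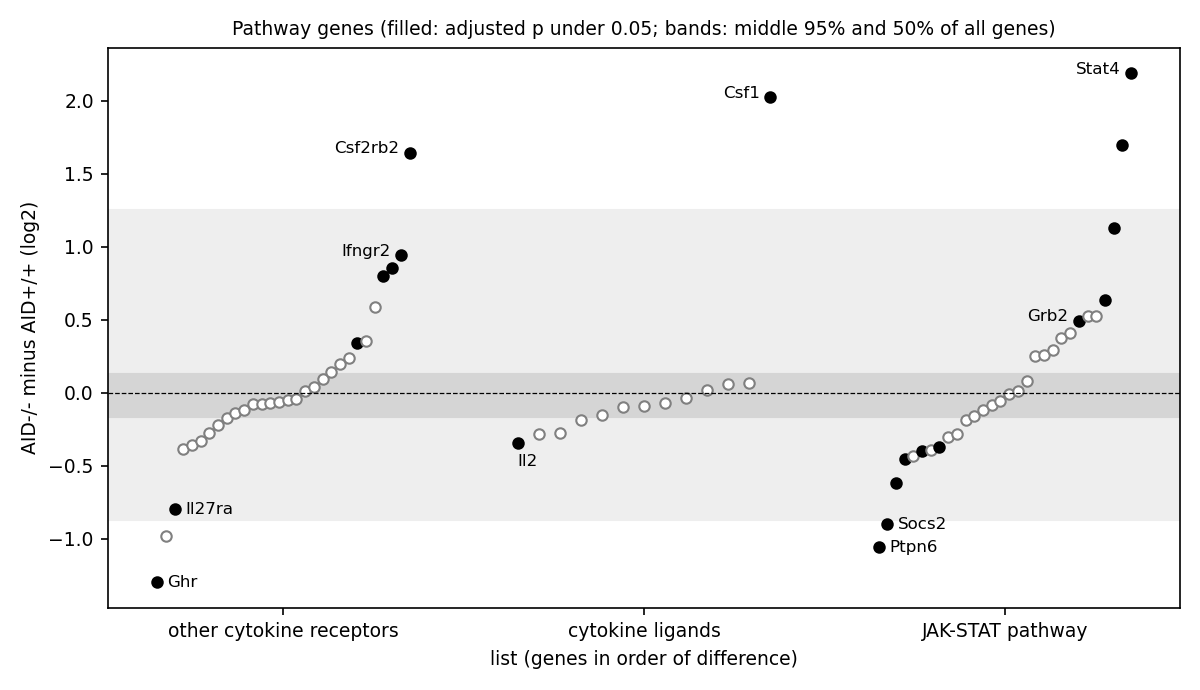
Difference (log2, AID-/- minus AID+/+) of 30 other cytokine receptors, 13 ligands and 30 JAK-STAT pathway genes, each in order of difference, filled where the adjusted p was under 0.05, over bands for the middle 95% and 50% of all genes. Of the called genes, Stat4 at 2.19, Csf1 at 2.02, Socs3 at 1.69 and Csf2rb2 at 1.64 lie above the wider band, and Ghr at -1.30, Ptpn6 at -1.06 and Socs2 at -0.90 below it.

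Of 30 measured genes of the JAK-STAT pathway downstream of these receptors, 5 were higher and 6 lower, against 10.1% and 8.42% of all genes. Groups did not overlap for 18 of the 30, 9 higher and 9 lower, against 36.5% of all genes (17.5% higher and 19.0% lower). The median difference was -0.03, with differences in both directions. Stat4, a transducer of interleukin-12 and interferon signals, was at 8.04, 9.28 and 8.61 in AID-/- and 6.24, 6.49 and 6.63 in AID+/+ leukaemia, higher by 2.19 (SE 0.28, limma adjusted p = 0.00157), or 4.55-fold. Socs2, a STAT5-induced inhibitor of cytokine receptors, fell by 0.90 (SE 0.11, limma adjusted p = 0.00141), from 12.86, 12.64 and 12.79 to 12.04, 11.71 and 11.85. Ptpn6, the gene of the SHP-1 phosphatase, fell by 1.06 (SE 0.17, limma adjusted p = 0.00450), and its second probe set differed by -0.73 without passing. Grb2, an adaptor between receptors and RAS, was higher by 0.49 (SE 0.08, limma adjusted p = 0.00566), but its other probe set differed by -0.35, and with probe sets averaged the difference was 0.07 (adjusted p = 0.820).

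The remaining called genes were named after their values were seen. Socs3 and Cish, which like Socs2 encode inhibitors of cytokine signalling of the SOCS family, were higher by 1.69 (SE 0.31) and 0.63 (SE 0.11), in the opposite direction to Socs2, and Cish is also a known STAT5 target. Irs2, an adaptor of insulin and interleukin-4 receptors, was higher by 1.13 (SE 0.27), and no longer passed when AID-/- replicate 3, AID+/+ replicate 2 or AID+/+ replicate 3 was dropped. Socs7, Gab2, Socs4 and Ptprc, which encodes the phosphatase CD45, differed by -0.62, -0.45, -0.40 and -0.37. The Gab2 and Ptprc calls were lost when any array but AID-/- replicate 2 was left out, and the Socs4 call when any array but AID-/- replicate 3 was left out. Another 4 genes of the list, Jak1, Socs6, Cblb and Shc1, were called only at a probe set other than their brightest.

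At their brightest probe sets the kinases and STAT factors used by receptors that hold IL7R or CSF2RB, also named after their values were seen, did not pass. Jak1, Jak2 and Jak3 differed by 0.41 (SE 0.14), -0.12 (SE 0.09) and -0.18 (SE 0.21), and Stat5a and Stat5b by 0.29 (SE 0.09) and 0.08 (SE 0.12). A second Jak1 probe set was higher by 0.54 (SE 0.11, limma adjusted p = 0.0149). Another differed by 0.63 (SE 0.19) without passing (limma adjusted p = 0.0608). Without AID-/- replicate 1, 8 members of the list were higher and 3 lower, and the count of lower members was also 3 without AID+/+ replicate 1 or 3. Shares over all genes were not counted in those fits.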

How the data were processed

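The deposited values of the 6 arrays were log2 expression values; RMA and Partek appear in the submitters' processing notes, with neither versions nor the order of steps. From 45101 rows, 64 controls were removed. The platform annotation gave 34945 probe sets exactly 1 symbol, of which 34741 were matched through their Entrez identifier to current RefSeq symbols (GRCm38.p6). No filter on dim probe sets was applied, and with no read depth the number of arrays limits precision.

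Groups were compared two-sided in limma (version 3.58.1, under R 4.3.3) by lmFit and eBayes with group as the only term and Benjamini-Hochberg adjustment over 45037 probe sets, or over 18193 genes for gene lists. The fit was tested on simulated data with 45037 probe sets, of which 200 were changed. The share recovered was 14% where the simulated log2 change was 0.5, 72% where it was 1 and 96% where it was 2. In the data 6589 probe sets were called, and the adjusted threshold depends on how many change. These shares therefore need not hold for this comparison, and small differences can still be missed.

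The members and lists were chosen with earlier results of these data known. Text names every member, and up to 4 called genes per list with the smallest p, and the 3 genes closest in pattern to the member probe set with the largest difference, and marks others as chosen after their values were seen. Called marker genes are named too. Some genes of the lists are not reported here. Alternatives were quantile normalization, median centring, leaving out dim probe sets, an intensity trend, no moderation, array weights, a replicate block, averaged probe sets and leaving out each array.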

Additional observations from a re-analysis of the deposited data

How the results depend on the processing

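Counts of called probe sets among the 15 ran from 0 to 2 higher and from 1 to 2 lower when 1 array was left out. Over the same fits, other receptors ran from 2 to 6 higher and 1 to 3 lower, ligands stayed at 1 higher with 0 to 1 lower, and JAK-STAT genes ran from 4 to 8 higher and 3 to 5 lower. Without variance moderation 0 of the 15 probe sets were lower, 1 receptor was higher and 1 lower, and 3 JAK-STAT genes were higher and 1 lower. With array weights 2 of the 15 were higher and 1 lower, 4 receptors were lower and 9 JAK-STAT genes higher. With probe sets averaged 4 receptors were lower, and with dim probe sets left out 0 ligands were lower; Kit and the called Ghr and Il2 probe sets drop out of that fit. The shares of all probe sets or genes called in these fits were not counted. Whether the shifts are particular to the lists therefore cannot be told, and their cause was not tested. Same-numbered replicates did not deviate together over all probe sets (correlations -0.05, -0.07 and 0.03). With 3 arrays per group this cannot settle whether they share a batch. With a replicate block 1 of the 15 was lower and 0 ligands were lower.

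Signs changed only at differences that were small or uncalled, apart from Socs4, which was lower by its brightest probe set and at 0.0629 with probe sets averaged. Il4ra (1421034_a_at) was at 0.0272 with quantile normalization, 0.0245 with median centring and 0.0762 with array weights, and Il21r at 0.0204 with array weights. With 1 array left out, Crlf2 ran from -0.16 to 0.11, Il2ra from -0.16 to 0.49 and from -0.53 to 0.29, Il3ra from -0.31 to 0.11, Il4ra from -0.20 to 0.11 and Il21r from -0.16 to 0.11. Over the 15 probe sets and the called list genes, 228 values from whole-data alternatives kept direction and call, 26 lost the call, 2 gained it and 5 changed sign; with 1 array left out, 160 kept both, 39 lost the call, 2 gained it and 9 changed sign.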
